A study of Mus musculus with 6 samples.

Results

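The Notch pathway genes examined here were 10 genes chosen by name, which are the ligands Dll1, Jag1 and Jag2, the receptors Notch1, Notch2 and Notch3, the DNA-binding factor Rbpj, and the targets Hes1, Hey1 and Heyl. They are 10 of the 22953 mouse genes with a RefSeq transcript that could be placed on NCBI Build 37 (mm9). Chromatin came from primary limb myoblasts of wild type C57BL/6 fetuses at E18.5, grown to passage 17 and differentiated for 48 h in medium with 2% horse serum into myotubes, the multinucleated cells that myoblasts fuse into. Chromatin immunoprecipitation followed by sequencing (ChIP-seq) was done for the transcription factor Sox6 and for RNA polymerase II (Pol II, with the 4H8 antibody to its C-terminal repeat), and input DNA was sequenced as the background, with 2 libraries in each of the 3 groups. The 6 libraries share strain, age, culture and fixation with disuccinimidyl glutarate and formaldehyde, so there was no second condition, and every comparison is of a ChIP with input. The Sox6 libraries held 2985437 and 1468604 mapped reads, the Pol II libraries 1538757 and 2762155, and the inputs 21973495 and 24249850.

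Notch signalling passes between touching cells. A ligand on the surface of a cell binds a Notch receptor on its neighbour, the receptor is cut by an Adam protease and then by the gamma-secretase complex, and the freed intracellular domain joins Rbpj on DNA together with Mastermind-like coactivators, which turns on the Hes and Hey genes of transcriptional repressors. In skeletal muscle the pathway is known for holding progenitor cells in an undifferentiated state. Sox6 is an HMG box factor known for repressing slow fiber genes in fetal muscle, and Pol II over the body of a gene is a mark of its transcription.

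The common Sox6 peaks are those deposited as present in both Sox6 libraries. They lay in or within 20 kb of 2 of the 10 genes, Notch1 with 3 peaks and Notch2 with 1. Of all genes, 996 of 22953 (4.34%) had a common peak at that distance, and 28 had 3 or more. Long genes offer more room, and among the 5345 genes of at least 45 kb the share was 9.02%. Notch1 spans 58.7 kb and Notch2 137 kb, and the members without a peak ranged from Hes1 at 2.46 kb to Rbpj at 102 kb. Dll1, Jag1, Jag2, Notch3, Rbpj, Hes1, Hey1 and Heyl had no peak in the common list or in the list of either Sox6 replicate. With a limit of 5 kb, Notch1 kept 1 peak and Notch2 its 1 peak, and with 50 kb no further member gained any. Counted from the most downstream coding start of each gene, which for Notch1 is the RefSeq start 12.8 kb into the longest model, Notch1 had 2 peaks and Notch2 1, and 1 of those 2 lies inside another gene, 0610009E02Rik.

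On NCBI Build 37 the ligand genes are Dll1 (chr17:15504318-15512940), Jag1 (chr2:136907192-136942380) and Jag2 (chr12:114146801-114167706), all on the minus strand. The receptor genes are Notch1 (chr2:26313426-26372156, minus), Notch2 (chr3:97817461-97954290, plus) and Notch3 (chr17:32257765-32303825, minus). Rbpj lies at chr5:53947018-54048684 on the plus strand. The targets are Hes1 (chr16:30065426-30067882, plus), Hey1 (chr3:8663362-8667039, minus) and Heyl (chr4:122910799-122927118, plus). Notch1 overlaps 0610009E02Rik, so reads in the shared part could belong to either gene.

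The 4 common peaks are shown because they are the Sox6 sites at these genes. Each sequence holds 200 bases about the peak centre on the plus strand of NCBI Build 37, and capitals mark matches on either strand to motifs of factors known to act in muscle chromatin, which were ACAAAG and ACAATG for Sox factors, CAGCTG and CAGGTG for the E-boxes of myogenic bHLH factors, CCACA for Runx, GGAATG for Tead and GTGGGAA for Rbpj. Adjoining capitals may hold overlapping matches, as where GGAATG and the reverse complement of CCACA share bases.
Notch1 intron, chr2:26343331-26343530: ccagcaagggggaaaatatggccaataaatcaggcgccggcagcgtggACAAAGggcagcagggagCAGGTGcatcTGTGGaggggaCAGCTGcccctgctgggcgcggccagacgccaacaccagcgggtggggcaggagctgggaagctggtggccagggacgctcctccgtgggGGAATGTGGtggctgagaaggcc
Notch1 upstream, chr2:26387521-26387720: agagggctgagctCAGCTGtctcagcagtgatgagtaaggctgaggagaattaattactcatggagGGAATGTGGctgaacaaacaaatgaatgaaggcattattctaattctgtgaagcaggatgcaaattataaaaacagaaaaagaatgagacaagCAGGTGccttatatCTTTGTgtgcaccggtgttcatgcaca
Notch1 downstream, chr2:26306621-26306820: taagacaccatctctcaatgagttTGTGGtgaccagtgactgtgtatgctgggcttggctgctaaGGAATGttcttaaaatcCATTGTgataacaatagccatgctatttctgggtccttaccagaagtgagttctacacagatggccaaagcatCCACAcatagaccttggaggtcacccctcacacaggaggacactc
Notch2 intron, chr3:97871401-97871600: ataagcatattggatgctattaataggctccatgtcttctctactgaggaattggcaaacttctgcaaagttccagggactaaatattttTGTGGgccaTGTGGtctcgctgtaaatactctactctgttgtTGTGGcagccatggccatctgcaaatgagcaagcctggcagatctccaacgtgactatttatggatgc
The intronic and the upstream Notch1 sequence each held ACAAAG once, on the plus and the minus strand respectively, as did 30.4% of the 1066 common peaks at the same length. Both also held the E-boxes CAGCTG (53.5% of common peaks) and CAGGTG (24.9%) and the Tead motif GGAATG (28.4%). The Runx motif CCACA was at 2 places in the intronic sequence and at 1 in the upstream sequence. The downstream sequence held ACAATG once (36.9% of common peaks), GGAATG, and CCACA at 2 places (68.9%). The Notch2 sequence held CCACA at 3 places and none of the other motifs. GTGGGAA was in none of the 4 sequences and in 6.94% of common peaks. A match is a description of letters and does not show that a factor was bound.

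The deposited intervals place the peaks as follows. The intronic Notch1 peak, chr2:26343402-26343461, lay in intron 1 of the longest annotated model, 28.7 kb after its start. From the RefSeq start, 12.8 kb into that model, it lay 15.9 kb downstream, in intron 2 of the model that begins there. The upstream peak, chr2:26387602-26387641, lay 15.5 kb before the start of the longest model and 28.3 kb before the RefSeq start, and no other gene was within 20 kb of either. The third peak, chr2:26306642-26306801, lay 6.71 kb past the end of Notch1 but inside the gene 0610009E02Rik, 5.51 kb from the start of that gene, and within 20 kb of Sec16a, so its link to Notch1 rests on distance alone. The Notch2 peak, chr3:97871402-97871601, lay in intron 2, 54.0 kb after the start, with no other gene within 20 kb.

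In 450 bp around the centre of the intronic Notch1 peak, the Sox6 libraries held 16 and 11 reads and the inputs 6 and 10. Per 1000000 mapped reads (RPM) this was 5.36 and 7.49 for Sox6 against 0.273 and 0.412 for input, a log2 ratio of 4.20 with a standard error (SE) of 0.49. Sox6 exceeded input in both libraries, and 80.0% of common peaks had a lower log2 ratio. The upstream Notch1 window held 8 and 6 Sox6 reads against 13 and 13 in input, or 2.68 and 4.09 RPM against 0.592 and 0.536. Its log2 ratio of 2.60 (SE 0.51) was among the lower ones, with 11.3% of common peaks below it. The downstream window held 14 and 6 Sox6 reads against 8 and 8 in input, a log2 ratio of 3.65 (SE 0.55). The Notch2 window held 10 and 10 Sox6 reads against 9 and 8 in input, or 3.35 and 6.81 RPM against 0.410 and 0.330, a log2 ratio of 3.69 (SE 0.52). All 4 passed the limma test against input, as did 1031 of 1066 common peaks (96.7%). Since SISSRs had chosen the peaks from the reads counted here, these ratios are a description and no test.

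Each replicate's peaks were also read in the other Sox6 replicate, set against the input of the same number, although no label pairs them. For the replicate 1 peaks at Notch1, Sox6 replicate 2 held 6 reads against 8 of input replicate 2 at the intronic site. It held 5 against 14 at the upstream site and 6 against 9 at the downstream site. Scaled to library size these were 12.4, 5.90 and 11.0 times input. For the replicate 2 peaks, Sox6 replicate 1 held 12 against 6, 8 against 11 and 15 against 9 reads, which were 14.7, 5.35 and 12.3 times input. The Notch2 peak had 20.6 times input in replicate 2 and 8.18 times in replicate 1. These 4 sites are on the common list, with a peak called at or beside each in both replicates, so these values describe them and are no independent test. A further Notch2 peak, chr3:97870652-97870691, was listed for replicate 1 alone, and in replicate 2 it had 3 reads against 6 of input, or 8.26 times (adjusted p = 0.0198, exact two-sided binomial test over the replicate 1 list). Over the full lists, shared peaks included, 67.0% of replicate 1 peaks passed this test with more Sox6, and 84.4% of replicate 2 peaks did. With both inputs summed in place of the input of the same number, 2006 of 2888 replicate 1 peaks and 1462 of 1734 replicate 2 peaks passed. The test covers counting error only. With reads counted in the deposited intervals, many of which are narrower than a fragment, 5 of the 9 member peaks of these lists were not called, those of both Notch2 peaks and of the downstream and upstream Notch1 peaks of replicate 1 and that of the Notch2 peak of replicate 2. At the intronic and upstream Notch1 sites the replicate intervals did not overlap: replicate 1 called chr2:26343452-26343671 and chr2:26387652-26387731, and replicate 2 called chr2:26343292-26343411 and chr2:26387472-26387591. The upstream intervals lay more than 50 bp apart. The upstream common interval, chr2:26387602-26387641, lay between them and overlapped neither.

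**Figure D1:**
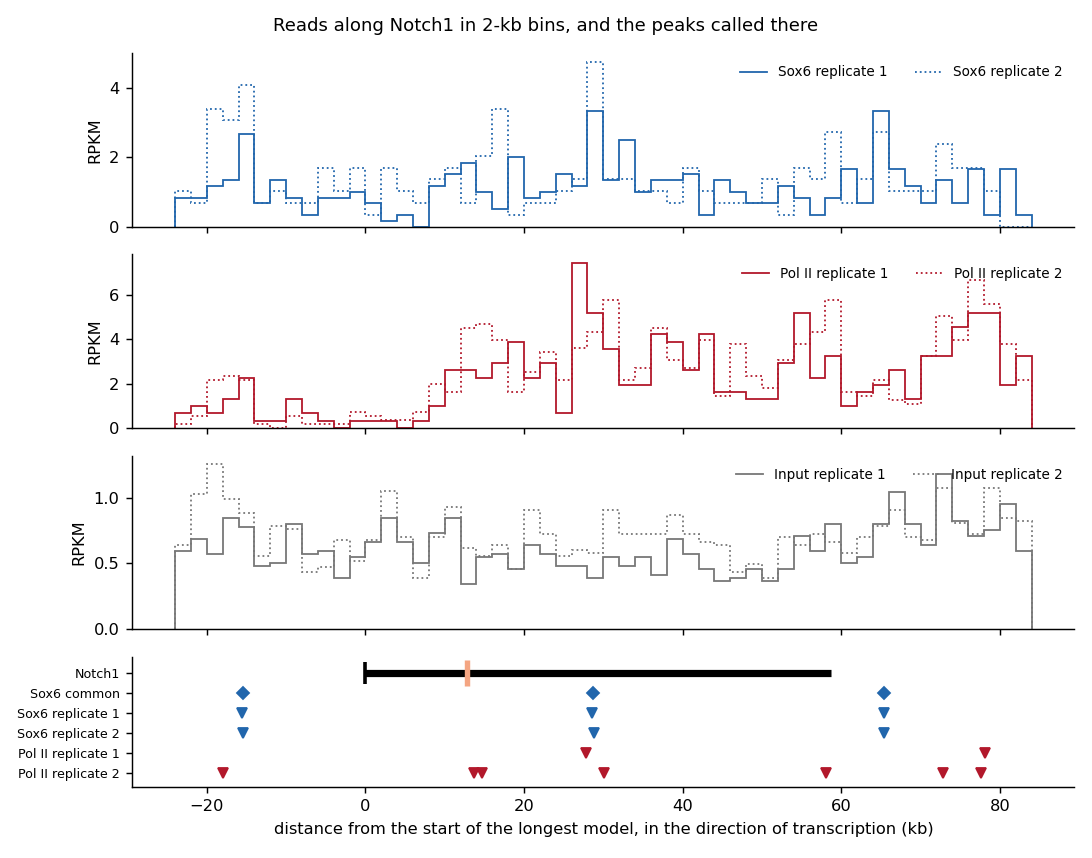
Reads along Notch1 in RPKM per 2-kb bin for each library (solid line, replicate 1, dotted line, replicate 2), by distance in kb from the start of the longest model. The bar is that model, the orange tick the RefSeq start 12.8 kb into it, and the marks are the called peaks. In both Sox6 libraries the highest bin is that of the intronic common peak, equalled in replicate 1 by that of the downstream peak, and Pol II rises around the RefSeq start and is near input at the start of the longest model.

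**Figure D2:**
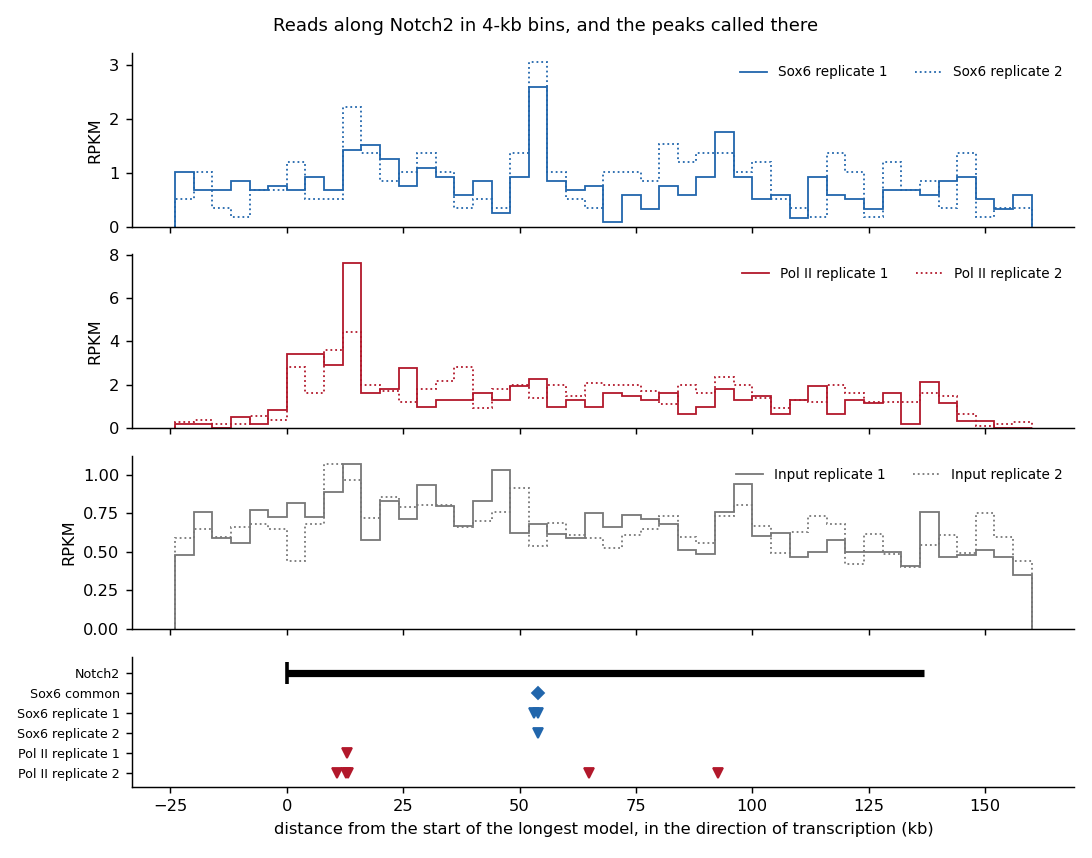
Reads along Notch2 in RPKM per 4-kb bin for each library (solid line, replicate 1, dotted line, replicate 2), by distance in kb from its start, with the model as a bar and called peaks as marks. Pol II rises at the start in both libraries and is highest about 12 kb into the gene, and Sox6 is highest at the intronic common peak.

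Pol II was read over the gene body, from 1 kb after the start to the end of the gene, in reads per kb and 1000000 mapped reads (RPKM). Over bodies, Pol II was higher than input at 8 of the 10 genes by limma with Benjamini-Hochberg adjustment at 0.05, all but Jag1 and Hey1. Of all 19621 genes tested, 37.4% were higher and 25.9% lower, and no member was lower. With the libraries scaled to their reads outside peaks in place of all reads, 9358 genes were higher and 2839 lower, against 7345 and 5091, and 9 members were higher, Jag1 in addition. The median log2 ratio of the members was 1.02 and that of all genes 0.11. Because more Pol II per cell and more transcribing cells give the same reads, these values are of the whole culture.

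Hes1, the repressor gene that is the best-known Notch target, had the highest Pol II level of the 10, at 4.46 and 3.73 RPKM against 0.562 and 0.396 RPKM in input. Its log2 ratio was 3.12 (SE 0.45, adjusted p = 0.000262), although its short body of 1.46 kb held only 10 and 15 Pol II reads. The related targets stood far lower. Heyl had 1.02 and 0.922 RPKM of Pol II against 0.597 and 0.716 in input, a log2 ratio of 0.59 (SE 0.19, adjusted p = 0.0234). Hey1 had 1.21 and 0.541 RPKM against 0.629 and 0.570, so its groups overlapped, and its log2 ratio of 0.57 (SE 0.51, adjusted p = 0.357) did not pass. Without Pol II replicate 1 the Hey1 ratio was 0.0041, and without replicate 2 it was 1.14. In these fits the spread comes from the inputs alone, so only ratios are given.

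Among the receptors, Notch1 was second to Hes1, at 2.58 and 2.94 RPKM against 0.546 and 0.668 in input, a log2 ratio of 2.19 (SE 0.12, adjusted p = 6.66e-07). Notch2 had 1.70 and 1.80 RPKM against 0.688 and 0.675, a log2 ratio of 1.36 (SE 0.07, adjusted p = 7.18e-07). Both receptors with a Sox6 peak thus had Pol II over their bodies in both libraries, without overlap with input. Notch3 was much lower, at 0.721 and 0.546 RPKM against 0.411 and 0.510, a log2 ratio of 0.47 (SE 0.18, adjusted p = 0.0442).

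Of the ligands, Jag2 had 2.38 and 2.16 RPKM of Pol II against 0.375 and 0.541 in input, a log2 ratio of 2.34 (SE 0.19, adjusted p = 7.65e-06). Dll1 had 1.45 and 1.85 RPKM against 0.490 and 0.600, a log2 ratio of 1.62 (SE 0.25, adjusted p = 0.000473). Jag1 had values close to input, with 0.494 and 0.529 RPKM against 0.477 and 0.466, a log2 ratio of 0.14 (SE 0.15, adjusted p = 0.452). Rbpj, through which all receptors act on DNA, had 1.08 and 1.07 RPKM against 0.667 and 0.674, a log2 ratio of 0.68 (SE 0.08, adjusted p = 9.39e-05).

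In order of their mean Pol II level over the body, the genes were Hes1 (4.09 RPKM), Notch1 (2.76), Jag2 (2.27), Notch2 (1.75), Dll1 (1.65), Rbpj (1.07), Heyl (0.970), Hey1 (0.877), Notch3 (0.634) and Jag1 (0.512). The 2 libraries of each gene did not overlap with those of its neighbour in this order, except for Notch2 with Dll1, Heyl with Hey1, and Hey1 with Notch3. With 2 libraries a gene, that says only that the ranges were apart. Of all genes with a body, 96.0% had a lower mean Pol II level than Hes1, 92.3% than Notch1, 89.5% than Jag2 and 52.1% than Jag1.

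GC content moved with the Pol II ratio, since bodies called higher had a median GC content of 46.6% and the others 44.2%. With the trend on GC content removed from each library, which also centres the ratios of all genes on zero, Notch1 (log2 ratio 1.17, adjusted p = 4.01e-05), Notch2 (1.15), Rbpj (0.84), Dll1 (0.93), Jag2 (0.77) and Hes1 (1.75) were still called, against 33.5% of all genes. Notch3 was then at -0.0036 (adjusted p = 0.985) and Heyl at -0.048 (adjusted p = 0.817), so neither held. Their calls were also lost without input replicate 1, with a log2 ratio of 0.31 for Notch3 (adjusted p = 0.29) and 0.46 for Heyl (adjusted p = 0.268). Both were lost under the quasi-Poisson count model. Notch3 lost its call with the same pseudocount in RPM, and Heyl without input replicate 2 (0.72, adjusted p = 0.0803). Without Pol II replicate 1 the log2 ratio of Notch3 was 0.26. The other 6 genes were called in every setting tried that kept both Pol II libraries.

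**Figure D3:**
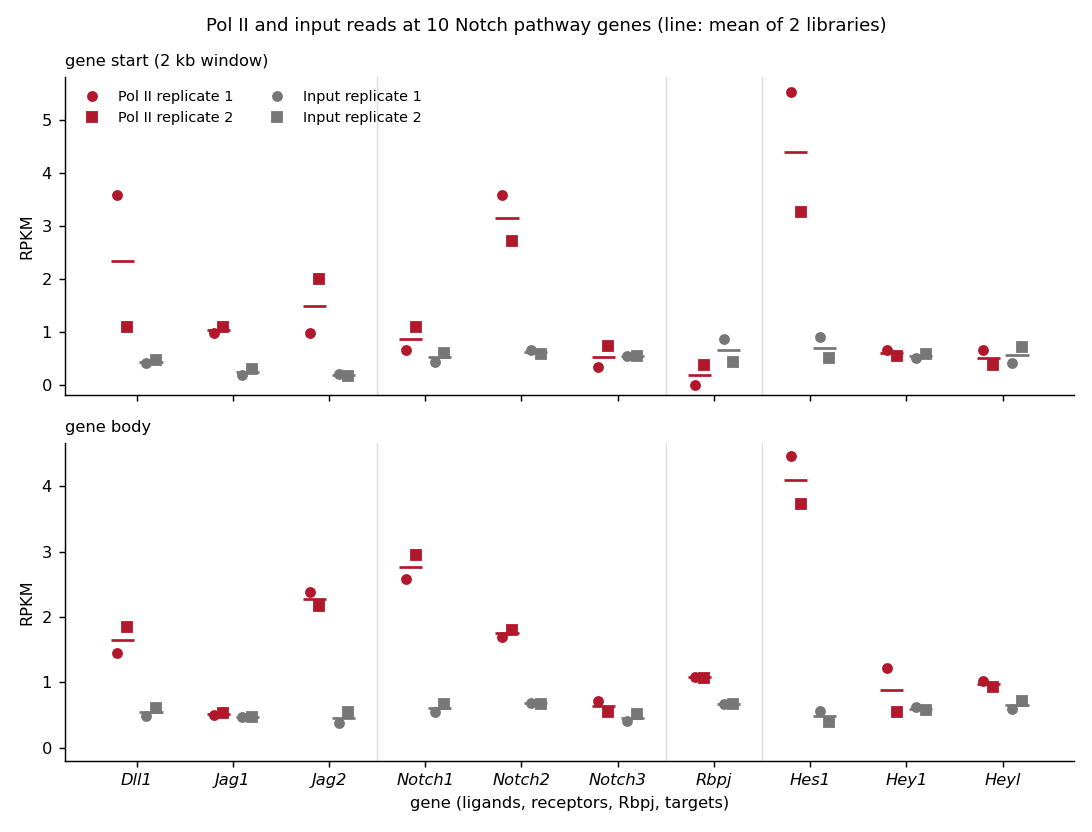
Pol II and input levels in RPKM at the start (upper panel) and over the body (lower panel) of the 10 genes. Each point is a library and each line the mean of 2 libraries. Hes1 is highest in both panels, and Jag1 lies above input at its start and close to input over its body.

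At gene starts, in a 2 kb window centred on the start of the longest model, Pol II was higher than input at 5 of the 10 genes, against 40.8% of 21774 genes tested, and lower at none. They were Hes1, Notch2, Jag2, Jag1 and Dll1. Hes1 had 17 and 18 Pol II reads, or 5.52 and 3.26 RPKM against 0.887 and 0.495 in input, a log2 ratio of 2.70 (SE 0.33, adjusted p = 3.52e-15). Notch2 had 11 and 15 reads, or 3.57 and 2.72 RPKM against 0.660 and 0.577, a log2 ratio of 2.37 (SE 0.36, adjusted p = 4.2e-10). Pol II exceeded input in both libraries of both genes.

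All 3 ligands were called at their starts on few reads. Jag2 had 3 and 11 Pol II reads against 9 and 8 in input, a log2 ratio of 2.98 (SE 0.66, adjusted p = 2.29e-05). Dll1 had 11 and 6 reads against 18 and 22, a log2 ratio of 2.25 (SE 0.45, adjusted p = 3.24e-06), which was 1.41 without Pol II replicate 1 and 3.08 without replicate 2 and lost its call with the same pseudocount in RPM in every library. Jag1 had 3 and 6 reads against 8 and 14, a log2 ratio of 2.27 (SE 0.67, adjusted p = 0.00228). Jag1 thus had more Pol II than input at its start, and over its body a log2 ratio of 0.14 that did not pass. The difference between start and body was not tested. Without input replicate 1 the Jag1 start had a log2 ratio of 1.95 and was not called (adjusted p = 0.134).

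Pol II at the starts of Notch3, Hey1 and Heyl did not pass the test against input. Notch3 had 1 and 4 Pol II reads against 24 and 26 in input (log2 ratio 0.19, SE 0.63), Hey1 2 and 3 against 22 and 28 (0.39, SE 0.60), and Heyl 2 and 2 against 18 and 34 (0.15, SE 0.64). At such counts only large differences could be detected. The median log2 ratio over all starts was 0.76, above all 3.

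Notch1 and Rbpj were not called at the start of their longest model. Notch1 had 2 and 6 Pol II reads there against 19 and 29 in input (log2 ratio 0.91, SE 0.55, adjusted p = 0.191), and Rbpj 0 and 2 against 38 and 21 (-1.20, SE 0.77, adjusted p = 0.22). The 0 reads at Rbpj in replicate 1 allow a level of up to 0.975 RPKM, what 3 reads are worth there. With all 4 libraries scaled to reads outside peaks, the Notch1 start was called higher, as were 10417 of 21774 starts. Without Pol II replicate 1, where the spread comes from the inputs alone, Notch1 had a log2 ratio of 1.18. Without Pol II replicate 2, the Rbpj ratio rests on the 0 reads of the remaining library. It is set by the 0.5 reads added and gives no size.

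Both genes have another annotated start inside the longest model, and the RefSeq promoters place their starts there. The RefSeq promoter sequences, given for GRCm38.p6, were found for 7 of the 10 genes and matched letter for letter in NCBI Build 37, at the start used for Notch2 and Jag2, within 0.153 kb of it for Jag1, Notch3 and the nearer of 2 Dll1 promoters, and 12.8 kb into the longest model for Notch1. The 2 Rbpj promoters lay 34.6 and 34.7 kb into it. Hes1, Hey1 and Heyl had no entry. The 250 bases before a RefSeq start are given for the genes whose start call depends on the model, Notch1 and Rbpj, and for Notch2, Jag1 and the farther Dll1 promoter to compare them. For Rbpj the farther promoter is shown, 0.228 kb before the downstream start. All are given on the strand of the gene, with the position found in NCBI Build 37 and the same motifs in capitals.
Notch1, chr2:26359343-26359592, minus strand: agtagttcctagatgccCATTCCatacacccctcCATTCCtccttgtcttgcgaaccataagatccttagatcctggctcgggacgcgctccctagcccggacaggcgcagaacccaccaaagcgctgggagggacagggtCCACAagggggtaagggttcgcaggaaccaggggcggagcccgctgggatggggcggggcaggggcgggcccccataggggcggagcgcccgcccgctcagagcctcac
Rbpj, farther promoter, chr5:53981335-53981584, plus strand: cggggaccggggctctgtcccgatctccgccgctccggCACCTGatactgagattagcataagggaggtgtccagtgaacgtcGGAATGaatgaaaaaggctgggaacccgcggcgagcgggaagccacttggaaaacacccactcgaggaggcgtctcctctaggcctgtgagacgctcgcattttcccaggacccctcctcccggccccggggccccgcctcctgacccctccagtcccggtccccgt
Notch2, chr3:97817211-97817460, plus strand: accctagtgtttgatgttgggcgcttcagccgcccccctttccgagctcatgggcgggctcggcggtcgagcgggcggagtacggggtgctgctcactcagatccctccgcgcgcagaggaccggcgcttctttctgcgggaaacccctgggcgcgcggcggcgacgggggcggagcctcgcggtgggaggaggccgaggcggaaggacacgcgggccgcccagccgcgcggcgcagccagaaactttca
Jag1, chr2:136942257-136942506, minus strand: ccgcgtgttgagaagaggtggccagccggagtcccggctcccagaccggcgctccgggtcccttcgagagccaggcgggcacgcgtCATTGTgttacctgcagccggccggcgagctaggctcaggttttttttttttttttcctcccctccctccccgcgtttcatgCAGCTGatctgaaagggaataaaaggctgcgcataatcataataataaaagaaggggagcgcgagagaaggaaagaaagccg
Dll1, farther promoter, chr17:15513897-15514146, minus strand: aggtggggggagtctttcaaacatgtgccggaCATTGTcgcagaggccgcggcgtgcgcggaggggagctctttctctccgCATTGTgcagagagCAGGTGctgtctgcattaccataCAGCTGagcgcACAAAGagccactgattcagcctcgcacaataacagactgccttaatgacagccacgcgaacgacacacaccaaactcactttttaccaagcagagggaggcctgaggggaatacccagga
The Notch1 promoter held GGAATG at 2 places and CCACA once, motifs in 12.6% and 49.3% of the 32851 RefSeq promoters. The farther Rbpj promoter held CAGGTG once (17.2% of promoters) and GGAATG once, the nearer one, chr5:53981475-53981724, held none of the motifs, and the Notch2 promoter none of the motifs. Jag1 held ACAATG (10.7%) and CAGCTG (13%) once each. The farther Dll1 promoter held ACAATG at 2 places and ACAAAG (16.5%), CAGCTG and CAGGTG once each, and no Sox6 peak lay within 20 kb of that gene. The nearer Dll1 promoter held none of the motifs. GTGGGAA, in 5.42% of promoters, was in none of those of the members.

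At the RefSeq start of Notch1, Pol II had 4 and 16 reads against 14 and 31 in input, or 1.30 and 2.90 RPKM against 0.319 and 0.639. The log2 ratio was 2.17 (adjusted p = 5.97e-06). At the downstream start of Rbpj, 0.088 kb from the nearer RefSeq start, Pol II had 5 and 6 reads against 3 and 20 in input, a log2 ratio of 2.98 (adjusted p = 5.4e-05). The inputs differed there, and the 3 reads of input replicate 1 are few, so the size of that ratio is uncertain. Leaving out an input was not tested at this start. Taken at the most downstream coding start of every gene, a choice made after seeing the data, 7 of the 10 genes were called and 39.3% of all genes. Pol II along the genes followed the same order. Between the 2 starts of Notch1 it was 0.781 and 0.971 RPKM against 0.736 and 0.747 in input, and after the RefSeq start 3.07 and 3.42 RPKM against 0.511 and 0.650. For Rbpj it was 0.317 and 0.419 RPKM against 0.566 and 0.565 between the starts, and 1.44 and 1.4 RPKM against 0.736 and 0.737 after them.

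Removing the GC trend took away more of the start calls than of the body calls. That step also shifted the ratios of all genes. Their median log2 ratio went from 0.76 to -0.015 at starts and from 0.11 to -0.054 over bodies. The part of this shift in the lost calls was not tested. Starts called higher had a median GC content of 54.1% and the others 49.2%, and among the members it ran from 45.9% at Rbpj to 73.4% at Jag2. With the GC trend removed, only Hes1 (log2 ratio 1.72, adjusted p = 0.000352) and Notch2 (1.02, adjusted p = 0.0234) of the 10 stayed called, against 20.5% of all starts. Jag2 fell to 0.43, Dll1 to 0.48 and Jag1 to 0.46, with adjusted p of 0.659, 0.465 and 0.622. At the RefSeq start of Notch1 and the downstream start of Rbpj it was 0.57 and 0.98 (adjusted p = 0.364 and 0.31). The trend was fitted over all starts, so by its construction it also takes out Pol II that GC-rich starts have in common, and the part of GC content in these calls cannot be told apart from that.

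**Figure D4:**
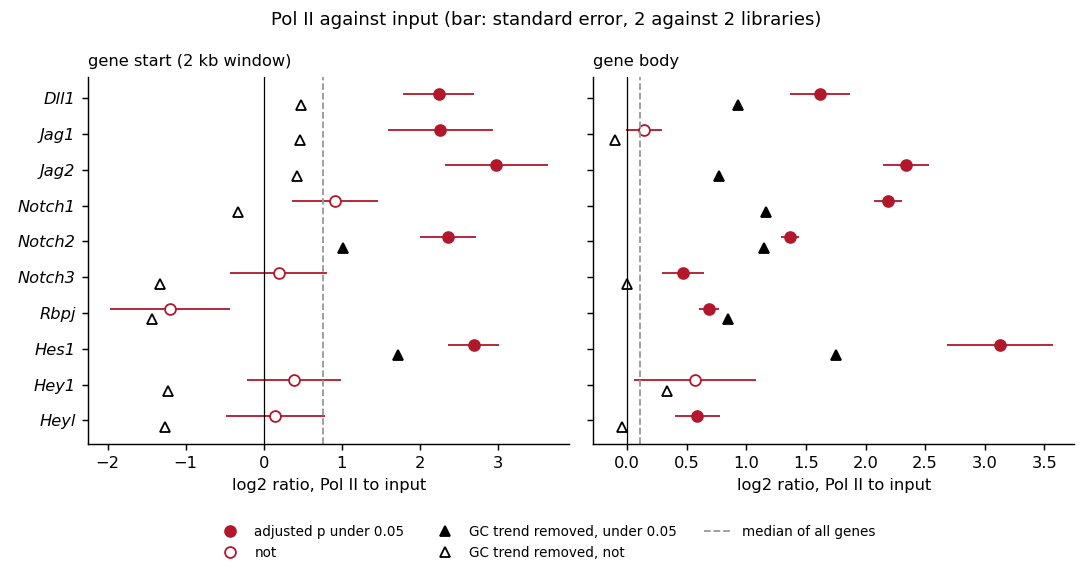
Pol II over input as a log2 ratio, for the start (left) and over the body (right) of the 10 genes. Circles are ratios with their SE, triangles the ratios after the GC trend was removed, filled symbols have an adjusted p under 0.05, and the dashed line is the median of all genes. Notch2 and Hes1 are filled in both forms at starts, and Notch1, Notch2, Dll1, Jag2, Rbpj and Hes1 over bodies.

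The deposited Pol II peaks were read beside these values. Notch1 had 2 Pol II peaks in or within 20 kb in replicate 1 and 7 in replicate 2, of which 2 lay 0.931 and 1.89 kb after the RefSeq start in replicate 2. Notch2 had 1 and 5 peaks, with those nearest the start in intron 1, 12.9 kb after it in replicate 1 and 10.8 kb in replicate 2. Hes1 had 1 in replicate 1, 0.485 kb after its start. Jag2 had 2 and 2, those of replicate 1 lying 7.6 and 9.3 kb upstream of its start. Its replicate 2 peaks lay 9.3 kb upstream and, in intron 5, 12.3 kb after the start. Heyl had 2 and 2, all between 5.13 and 7.43 kb upstream of its start. Notch3, Dll1, Jag1, Rbpj and Hey1 had none in either list. The Pol II peaks nearest to the intronic Sox6 peak of Notch1 were 0.890 kb away in replicate 1 and 1.19 kb in replicate 2, on opposite sides of it. Around the Notch2 Sox6 peak the nearest were 40.8 and 10.8 kb away.

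At gene starts Sox6 was higher than input at none of the 10 genes by limma, nor by a quasi-Poisson count model, against 0.343% of 21870 genes by limma. Unadjusted, 1 of the 10 had p under 0.05 with more Sox6 by limma, against 2838 of 21870 starts. It was Heyl, with 8 and 3 Sox6 reads against 18 and 34 in input (log2 ratio 1.25, SE 0.49, adjusted p = 0.276). The members' starts held between 1 and 8 Sox6 reads in a library, so that only large differences could be detected. Leaving out a Sox6 library leaves the spread to the inputs alone, so only ratios are given for those fits. Heyl had a log2 ratio of 1.12 without Sox6 replicate 1 and 1.38 without replicate 2. For Notch3 these were 0.62 and -1.14. The median log2 ratio was 0.64 over the members and 0.42 over all genes.

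Over gene bodies, Sox6 was higher than input at 3 of the 10 genes, against 4.74% of 19637 genes. Notch1 had 1.14 and 1.30 RPKM of Sox6 against 0.546 and 0.668 in input, a log2 ratio of 1.01 (SE 0.14, adjusted p = 0.0196). Dll1 had 1.10 and 1.88 RPKM against 0.490 and 0.600, from 25 and 21 Sox6 reads, a log2 ratio of 1.43 (SE 0.31, adjusted p = 0.0365). Jag2 had 0.791 and 1.27 RPKM against 0.375 and 0.541, a log2 ratio of 1.17 (SE 0.27, adjusted p = 0.0438). In all 3 both Sox6 libraries lay above both inputs. Notch2, which has a peak, had 0.809 and 0.973 RPKM against 0.688 and 0.675 over its long body (log2 ratio 0.38, SE 0.11, adjusted p = 0.0684). Rbpj was the one member with less Sox6 than input, at 0.579 and 0.507 RPKM against 0.667 and 0.674 (-0.30, SE 0.11, adjusted p = 0.123).

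These Sox6 calls over bodies moved with the setting, in both directions. Notch1 stayed called under the quasi-Poisson model and without input replicate 1, where Dll1 and Jag2 were lost. With the libraries scaled to reads outside peaks 4 members were called, Notch2 in addition, against 1388 of 19637 genes. With the same pseudocount in RPM in every library none was called, and 0 of 19637 genes were. Without Sox6 replicate 1, where the spread comes from the inputs alone, the log2 ratio was 1.11 for Notch1, 1.82 for Dll1 and 1.51 for Jag2. Without replicate 2 these ratios were 0.92, 1.04 and 0.82. Bodies called higher had a median GC content of 50.5% and the others 44.7%, while Notch1 had 53.7%, Dll1 51.3% and Jag2 58.5%. With the GC trend removed none of the 10 was called and 0.0255% of all genes were, and the log2 ratio was 0.29 for Notch1 (adjusted p = 0.514), 0.85 for Dll1 (adjusted p = 0.489) and 0.12 for Jag2 (adjusted p = 0.814). At starts with the trend removed, again none of the 10 was called, and 0.0274% of all genes. Without input replicate 1 the log2 ratio was 1.28 for Dll1 (adjusted p = 0.237) and 0.90 for Jag2 (adjusted p = 0.288). With reads within 1 kb of any Sox6 peak left out Notch1 stayed called, as did Dll1, while Jag2, at the same ratio of 1.17, had an adjusted p of 0.054. All 3 genes also had Pol II over their bodies, and the part of open chromatin in the Sox6 values was not tested.

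**Figure D5:**
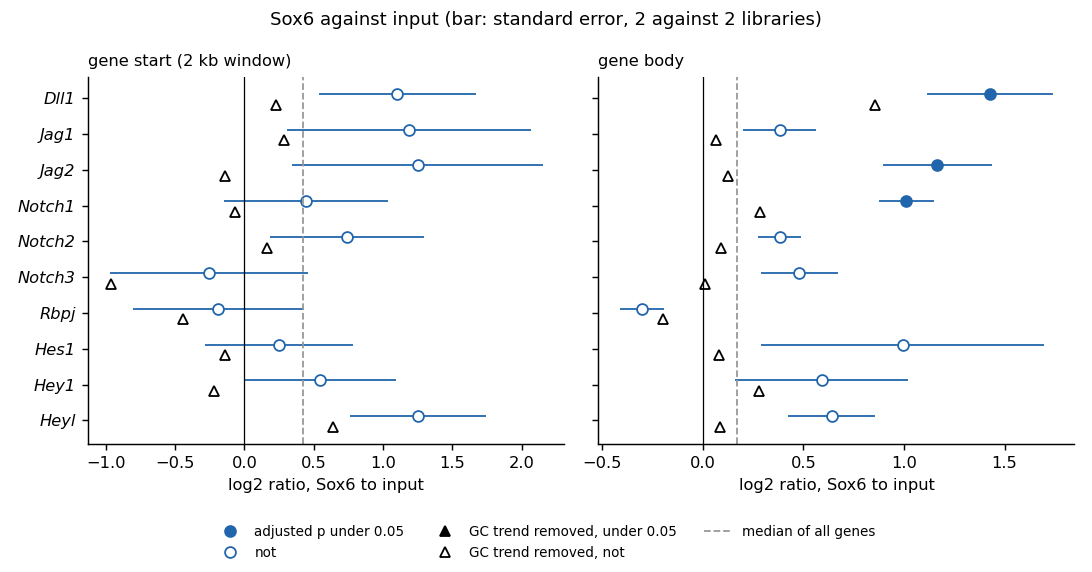
Sox6 over input as a log2 ratio, for the start (left) and over the body (right) of the 10 genes. Circles are ratios with their SE, triangles the ratios after the GC trend was removed, filled symbols have an adjusted p under 0.05, and the dashed line is the median of all genes. Filled circles are found only over the bodies of Notch1, Dll1 and Jag2, and no triangle is filled.

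The other 48 genes of the pathway gave the setting of these values. At starts Pol II was higher than input at 27 of 48 and lower at none, and over bodies higher at 24 of 46 tested and lower at 5 (Aph1b, Dtx1, Maml2, Rbpjl and Hey2), against 40.8% of all starts and 37.4% of all bodies called higher and 25.9% of all bodies called lower. None of the 5 was called lower with the libraries scaled to reads outside peaks or without input replicate 1. With the GC trend removed, 11 starts were higher and 3 lower (Dlk1, Notch4 and Rbpjl), against 20.5% of all starts higher and 1661 of 21774 lower. Over bodies 23 were then higher and 9 lower, against 33.5% of all bodies higher and 5696 of 19621 lower. None of the 4 other ligands, Dll3, Dll4, Dlk1 and Dlk2, nor Notch4 was called higher at its start. Of the 9 receptor cleavage genes 8 were, led by the protease Adam17 with 12 and 31 Pol II reads against 28 and 39 in input (log2 ratio 2.73, SE 0.32, adjusted p = 9.58e-17). Of the 5 glycosylation genes 2 were, led by the fucosyltransferase Pofut1 (log2 ratio 3.29, SE 0.36), and of the 11 trafficking and ubiquitin ligase genes 6, led by Numbl, a relative of the Notch inhibitor Numb (3.81, SE 0.36). Of the 7 coactivators 5 were, led by Maml1 (3.32, SE 0.36), and of the 6 corepressors 5, led by Ctbp1 (3.42, SE 0.36). With the GC trend removed, 5 of the 9 cleavage genes, 1 of the 5 glycosylation genes, 1 of the 11 trafficking and ubiquitin ligase genes, 1 of the 7 coactivators and 2 of the 6 corepressors stayed called, the named gene of each role among them.

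Of the 5 other genes grouped here with the targets, Hes5, Hes6, Hes7, Hey2 and Nrarp, only Hes6 was called at its start. Hes6 had far more Pol II there than any member, and whether Notch acts on Hes6 was not tested. Hes6, known for opposing Hes1 and for favouring differentiation, had 90 and 134 Pol II reads in its start window against 20 and 28 in input, a log2 ratio of 5.68 (SE 0.24, adjusted p = 3.19e-118). Actb, the reference gene of the study, had 72 and 148 reads against 12 and 30. Hes6 was also the only pathway gene called for Sox6 at its start, with 13 and 6 Sox6 reads (log2 ratio 2.10, SE 0.42, adjusted p = 0.0325). That Sox6 call was lost in 8 of 15 alternatives, among them the quasi-Poisson model, the same pseudocount in RPM, windows of 500 bp on each side and leaving out either input. With the GC trend removed the Pol II ratio of Hes6 was 3.95 and was still called, and the Sox6 ratio was 1.25 with an adjusted p of 0.66.

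Common Sox6 peaks also lay in or within 20 kb of 3 of the 48 other pathway genes, against 4.34% of all genes and 9.02% of those of at least 45 kb. The peak at Dlk2, a non-canonical ligand gene, was 12.5 kb upstream, with 24 and 14 Sox6 reads against 11 and 14 in input (log2 ratio 4.01, SE 0.45). Dlk2 had 1 and 3 Pol II reads at its start. The peak at Neurl1a, which encodes a ubiquitin ligase for ligands, was in intron 1, 44.2 kb after the start (log2 ratio 4.06, SE 0.54), and the one at the coactivator gene Maml3 in intron 2, 326 kb after the start (2.93, SE 0.53). Sox6 was called over the bodies of 9 of 46 genes, among them Notch4, Lfng, Mfng, Neurl1a and Numbl, against 4.74% of all bodies, and with the GC trend removed over none of them, against 0.0255%.

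The cultures carried the marks of myotubes. All 7 myotube genes examined, Myog, Myh3, Ckm, Acta1, Myl1, Tnnt3 and Des, had Pol II over their bodies, with summed start levels of 370 and 395 RPM against 10.5 and 12.2 RPM in input. Of the progenitor genes Pax7 and Myf5 passed and Pax3 did not. None of 6 fibroblast, 4 endothelial, 6 pericyte or smooth muscle and 3 cartilage genes passed over bodies, while at starts 1 pericyte or smooth muscle gene and 1 cartilage gene did. Dcn, Lum, Kdr, Tie1 and Sox10 had no Pol II read at the start. Cd68 of 3 blood genes and Tubb3 of 3 Schwann cell or neuron genes passed. Input replicate 1 had reads of 36 bp and all other libraries of 39 bp.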

How the data were processed

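ChIP-seq reads of Sox6, Pol II and input, with 2 libraries each from separate ChIP experiments on myotubes, were analysed as deposited. The authors mapped single-end reads with Bowtie 0.12.5 to mm9, kept uniquely mapped reads and deposited 1 position per read. They called peaks per library with SISSRs 1.4 (fragment length 450 bp, with the input of each experiment as background). Their methods count as common those within 50 bp of each other (ChIP-Seq Tool Set 1.0). The replicate intervals of the upstream Notch1 peak lay farther apart than that. Whether repeated positions were removed upstream is not given in the sources used here. They made up 2.96% to 7.88% of reads and were counted in the main analysis. An unnamed score in the Pol II peak files was not used.

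Each read was counted once, at its 5' end with no shift, in windows of 1 kb on each side of a gene start, over bodies of at least 500 bp, and in 450 bp around peak centres. Genes were the longest GENCODE vM1 models (NCBI Build 37) matched by symbol or synonym to RefSeq genes, 22953 in all, of which 2481 matched by synonym. Levels are reads per 1000000 mapped reads (RPM) and also per kb (RPKM). Log2 RPM, with 0.5 reads added to each count, was compared between 2 ChIP and 2 input libraries with limma 3.58.1 (trend, two-sided, R 4.3.3) over all features with at least 10 reads in the 4 libraries, with Benjamini-Hochberg adjustment and a threshold of 0.05. The scripts were tested on simulated data. There limma called 0 of 21437 unchanged Pol II starts and 17 of 21442 unchanged Sox6 starts higher. Of 50 starts raised 4-fold it recovered 14 for Pol II and 25 for Sox6. The added 0.5 reads weigh more in shallow libraries and raise the ratios of starts with few reads.

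The members and lists were chosen with earlier results of these data known. Of the other pathway genes, those named had a common Sox6 peak within 20 kb or the most Pol II at the start among called genes of their role. Counts by role name further genes, chosen after their values were seen. Removal of a loess trend (span 0.3) on GC content, and the most downstream coding start, were alternatives chosen after seeing the data.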

Additional observations from a re-analysis of the deposited data

How the results depend on the processing

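Of 566 member results under the alternatives, 192 kept their call and sign, 26 lost a call, 25 gained one with the same sign, and 287 had no call in either form and the same sign. A further 33 without a call changed sign, among them Pol II at the starts of Notch1, Notch3, Hey1 and Heyl with the GC trend removed. In 3 a sign change went with a call: Pol II over the bodies of Notch3 (-0.0036) and Heyl (-0.048) with the GC trend removed, and Pol II at Rbpj, which went from -1.20 to 2.98 at the most downstream coding start. Notch1 and Notch2 were the members with a Sox6 peak under every distance, list and gene model tried, Notch1 with 2 in place of 3 from that start. The number of starts with more Pol II than input, 8884, was 4454 with the GC trend removed and 4519 with it removed at the most downstream coding start. At the latter start with the trend removed, Pol II turned at Aph1b (-0.16), Rfng (-0.11), Crebbp (-0.062) and Spen (-0.016), and at the start of the longest model at Rfng (-0.14). Over bodies it turned at Notch4 (-0.70) and Mfng (-1.01) with the trend removed, and at Maml3 (0.48) with libraries scaled to reads outside peaks. Bodies with less Pol II than input, 5091, were 2839 with libraries scaled to reads outside peaks. That scaling moved the median log2 ratio of all genes from 0.76 to 1.26 at Pol II starts and from 0.11 to 0.60 over bodies, so the Pol II ratios of the members are best read against these medians. The 75 starts with more Sox6 than input became 417 in 1 kb windows, 0 with the same pseudocount in RPM in every library, 740 without the filter, 16 with at least 30 reads, 17 by the quasi-Poisson count model, 6 with the GC trend removed and 5 with it removed at the downstream start. The 931 bodies with more Sox6 became 483 without reads near peaks, 0 with the same pseudocount in RPM, 135 by the quasi-Poisson model and 5 with the GC trend removed. Before adjustment, 2838 of 21870 starts had p under 0.05 with more Sox6. In the deposited intervals, 902 of 2888 and 790 of 1734 peaks of the Sox6 replicates passed in the other replicate, against 1936 and 1463. Except where the construction of the alternative shows it, the cause was not tested. The quasi-Poisson model gave no ratio for starts without ChIP reads, and the deposited interval none for the Notch2 peak of replicate 1 alone.

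Leaving out 1 library gave 6807 to 11038 Pol II starts, 6181 to 8336 bodies higher and 3090 to 6817 lower, 0 to 8642 Sox6 starts, 169 to 6824 Sox6 bodies and 1008 to 1047 common peaks. The high Sox6 counts of starts and bodies came without a Sox6 library, where the lone one is assumed to vary like the inputs, and the low ones without an input. Leaving out 1 library moved Pol II over the body of Dlk1 between -1.32 and 1.11, Sox6 at the starts of Aph1b between -1.67 and 0.94 and Numb between -2.80 and 1.03, and Sox6 over the bodies of Aph1a between -1.15 and 1.09, Pofut1 between -0.38 and 0.32 and Rfng between -1.74 and 1.33. The study used the input of each ChIP experiment as background, but no label states that a replicate number marks a shared experiment. For that reason same-numbered libraries were not taken as pairs in the main limma fits, while the binomial test used the input of the same number. Their deviations from the group means correlated between -0.021 and 0.038 across genes. With 2 libraries a group and few ChIP reads a gene, such correlations cannot tell whether an experiment was shared. With the replicate number as a block, 8534 starts and 7407 bodies were higher for Pol II and 5232 bodies lower, 327 starts and 2524 bodies were higher for Sox6, and 1027 common peaks passed. Among the members the block added Sox6 calls over the bodies of Notch2, Notch3 and Heyl, 6 in all, and called Rbpj lower. Of all 19637 bodies, 1092 were called lower for Sox6 with the block, against 304 in the main fit. The members' starts held at most 8 Sox6 reads in a library, which limits the differences that could be detected there.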

Other observations

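Beyond the common list, single Sox6 replicates had peaks in or within 20 kb of further pathway genes. Among them were Furin, Mib1, Crebbp and Hes6 in replicate 1 and Notch4, Lfng and Mfng in replicate 2. Common peaks included, 8 of the 48 other pathway genes had one in replicate 1 and 7 in replicate 2, against 9.68% and 6.70% of all genes. By the binomial test in the other replicate, the Furin (adjusted p = 0.0598) and Mib1 peaks (2.75 times input, adjusted p = 0.144) did not pass. Those of the other genes named did.

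Hey2 had less Pol II than input over its body, with a log2 ratio of -1.72, while Hes6 had 4.55 and Hes1 3.12. The Hey2 value lost its call with the libraries scaled to reads outside peaks and without either input.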
